A study of Mus musculus with 9 samples.

Results

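Subplate neuron genes are described here across 3 Tcf4 genotypes in newborn mouse dorsal telencephalon, which gives rise to the cerebral cortex and hippocampus. The 7 members are Cplx3, Abca8a, Nxph4, Ctgf (Ccn2 in current nomenclature), Lpar1, Nr4a2 and Moxd1, chosen as established markers of the subplate and paired by symbol with 1 Ensembl gene each out of 41128 in the deposited tables. RNA sequencing was done on 3 libraries each from knockout (KO), heterozygous (Het) and wild-type (WT) pups at postnatal day 0, all labelled with the strain B6:129SF2/J. Tcf4 protein is a basic helix-loop-helix transcription factor of the E-protein class and binds E-box sequences. The allele is given only as a TCF4 knockout or heterozygote, and neither the deleted part, the pooling of pups nor litters is given in the sources used here, so the p-values cover the variation among these libraries, which may be partly technical.

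The subplate is a transient layer of early-born neurons beneath the cortical plate. Its neurons form some of the first cortical circuits, and thalamic axons wait among them before they enter the cortex. Many are lost after birth, and the survivors in rodents make up layer 6b. The members include a regulator of vesicle release (Cplx3), a secreted ligand-like glycoprotein (Nxph4), a lipid receptor (Lpar1), a lipid transporter family member (Abca8a), a nuclear receptor (Nr4a2), a secreted matrix protein (Ctgf) and a monooxygenase-like protein (Moxd1).

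Total counts ran from 26355671 to 29445788 in the KO libraries, from 24008445 to 29398411 in the Het libraries and from 22291940 to 23813314 in the WT libraries. Counts over the whole Tcf4 gene did not reach an adjusted p under 0.05 in any comparison by edgeR's quasi-likelihood test. The log2 fold changes were -0.10 (adjusted p = 0.363, SE 0.09) for KO versus WT, 0.12 (adjusted p = 0.333, SE 0.09) for Het versus WT and -0.22 (adjusted p = 0.132, SE 0.09) for KO versus Het. Every KO library lay below every Het library, and the WT range overlapped both. Deleting a few exons need not lower a whole-gene count, and every direction below rests on the labels. KO replicate 3 was the 1 library with more than 3 reads of the X-inactivation transcript Xist, at 2730 counts. It had 2 counts of the Y-linked gene Ddx3y, against 794 to 1220 in the other libraries. By these genes it was the 1 female library, and the part of sex in its values was not tested. WT replicate 2 held 85.8 CPM (counts per 1000000, scaled to library size) of the early-response gene Fos, against 3.79 and 4.09 CPM in the other WT libraries. Tbr1, a marker of deep-layer cortical and subplate neurons, had 253 ± 9.3 CPM in KO, 247 ± 17 CPM in Het and 253 ± 32 CPM in WT (SD, n = 3 each). These levels cannot show whether the dissections held equal amounts of other tissue. Genes of the striatum, which is ventral to the cortex, summed to 441 to 471 CPM in WT, 163 to 182 CPM in KO and 156 to 178 CPM in Het.

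The members did not move as a unit. In KO, Abca8a, Nxph4, Lpar1 and Cplx3 were higher than in WT and Nr4a2 was lower, by edgeR's quasi-likelihood test with Benjamini-Hochberg adjustment over 15271 genes. In Het, Abca8a and Lpar1 were higher than in WT, and Cplx3, Ctgf and Nr4a2 were lower. Between KO and Het, Cplx3, Abca8a, Moxd1 and Nxph4 were higher in KO and Nr4a2 was lower. All 7 members passed the filter on low counts, and 5 of the 7 were called in each comparison.

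These counts stand against a wide background. Of all tested genes, 52.8% were called for KO versus WT (26.5% higher, 26.3% lower), 45.9% for Het versus WT (22.5% higher, 23.4% lower) and 16.7% for KO versus Het (8.30% higher, 8.44% lower). The 5 of 7 members called stand beside 52.8% and 45.9% of all genes in the comparisons with WT, and beside 16.7% for KO versus Het. With only 7 members, chosen with earlier results of these data known, these shares were not tested against each other. The same shares over all genes stand beside the counts of every gene list below, which were not tested against them either. The median log2 fold change of the members was 0.67 for KO versus WT, -0.30 for Het versus WT and 0.58 for KO versus Het, beside medians over all tested genes of 0.00902, 0.0127 and 0.00415. In whole tissue, fewer cells of a type and less RNA per cell cannot be told apart. The comparisons with WT share the WT libraries, so their values are set side by side and not as independent evidence.

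**Figure D1:**
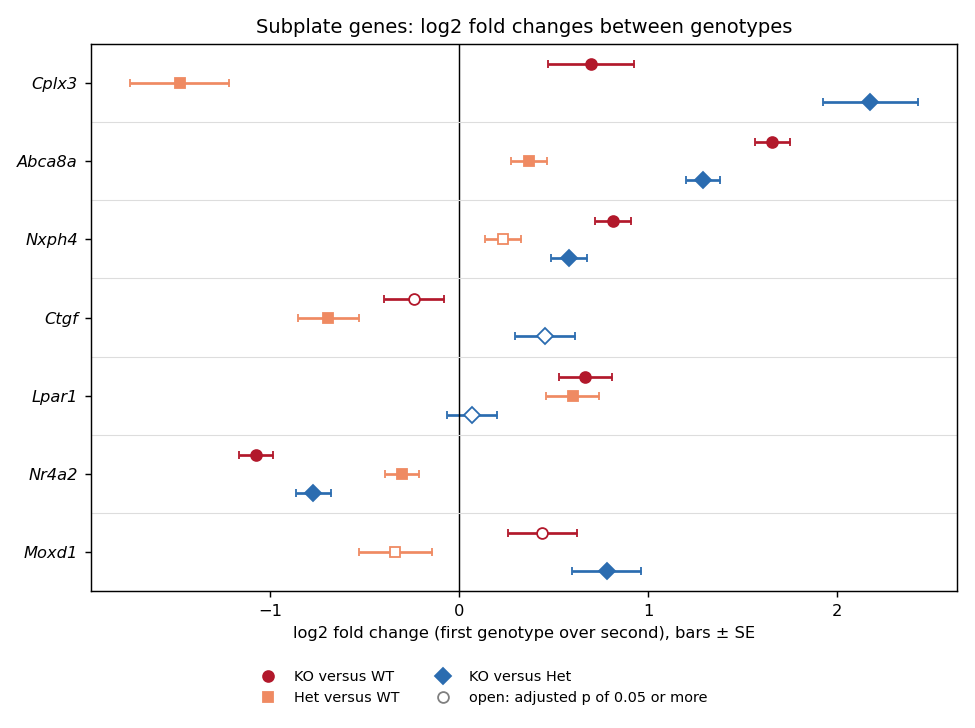
Log2 fold change (x axis, first genotype over second) of the 7 subplate genes (y axis) for KO versus WT (red circles), Het versus WT (orange squares) and KO versus Het (blue diamonds), with bars of ± SE and open symbols where adjusted p was 0.05 or more. Cplx3 lies at 0.70 for KO versus WT and -1.48 for Het versus WT, whereas Abca8a lies right of 0 and Nr4a2 left of 0 in all 3 comparisons.

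Promoter sequences from RefSeq (build GRCm38.p6, the assembly of mm10) were matched for 5 of the 7 members. Cplx3, Abca8a and Nr4a2, the members called in all 3 comparisons, are shown 5′ to 3′ on the gene's own strand, with every E-box core (CANNTG, the same motif on both strands) in capitals. The stretches end where the first annotated exon starts and lie at chr9:57606282-57606531 (minus strand), chr11:110095979-110096187 (minus strand) and chr2:57124004-57124253 (minus strand). They are shown because E-boxes are the class of site that Tcf4 protein binds.
Cplx3: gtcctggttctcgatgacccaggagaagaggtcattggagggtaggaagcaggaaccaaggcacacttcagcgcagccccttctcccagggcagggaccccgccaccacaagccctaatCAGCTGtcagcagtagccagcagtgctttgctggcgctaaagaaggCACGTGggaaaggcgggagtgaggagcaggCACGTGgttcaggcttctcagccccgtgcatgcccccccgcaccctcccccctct
Abca8a: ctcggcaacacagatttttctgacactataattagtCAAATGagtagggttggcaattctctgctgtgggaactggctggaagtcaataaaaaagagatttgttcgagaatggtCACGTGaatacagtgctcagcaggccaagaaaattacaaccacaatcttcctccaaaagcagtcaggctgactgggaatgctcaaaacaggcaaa
Nr4a2: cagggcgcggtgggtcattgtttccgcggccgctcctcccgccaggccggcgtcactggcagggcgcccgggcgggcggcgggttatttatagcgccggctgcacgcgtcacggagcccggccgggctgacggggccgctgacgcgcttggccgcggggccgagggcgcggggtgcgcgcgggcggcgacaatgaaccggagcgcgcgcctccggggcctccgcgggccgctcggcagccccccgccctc
The 250 bases before the start held 3 E-box cores for Cplx3, 3 for Abca8a (the last of them inside an annotated exon and not printed) and none for Nr4a2. Of 32851 promoter windows of that length, 66.2% held at least 1 CANNTG, 13% held CAGCTG and 17.2% held CAGGTG on either strand, so a core is common. A match is a description of letters, and whether Tcf4 protein binds there was not measured. Moxd1, the 1 member window with CAGGTG, held 1 core in all, and of the 3 alternative starts of Lpar1 only the one at chr4:58499404-58499653 (minus strand) held any, with 2.

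Cplx3 gave opposite differences in the 2 mutant genotypes. It encodes a complexin, a small protein that binds the SNARE complex and controls vesicle fusion, and lies on chromosome 9 (57599992 to 57606281, minus strand, build mm10). Cplx3 had 5.44, 4.61 and 7.90 CPM in KO, 1.11, 1.08 and 1.76 CPM in Het, and 2.76, 4.28 and 4.05 CPM in WT. All Het libraries were below all WT libraries, and all KO libraries were above them. The log2 fold change was 0.70 (adjusted p = 0.0184, SE 0.23) for KO versus WT, -1.48 (adjusted p = 0.00034, SE 0.26) for Het versus WT and 2.18 (adjusted p = 3.08e-05, SE 0.25) for KO versus Het.

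The KO versus WT difference of Cplx3 was the least secure of its comparisons. KO replicate 3, the female library by Xist and Ddx3y, had the highest value, and without it the log2 fold change was 0.44 (adjusted p = 0.117). Without WT replicate 1, the lowest of its group, it was 0.52 (adjusted p = 0.0862). The gene was counted at 27 to 238 reads per library, so counting error weighs more on it than on most other members. The differences of Cplx3 for Het versus WT and for KO versus Het were called in each of the 18 alternative settings.

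Nxph4 was higher in KO than in either other genotype. It belongs to the neurexophilins, secreted glycoproteins of which several bind alpha-neurexins, and lies on chromosome 10 (127525473 to 127534559, minus strand). Nxph4 had 34.4, 29.0 and 30.7 CPM in KO, 22.5, 21.6 and 18.9 CPM in Het, and 17.1, 16.4 and 20.0 CPM in WT. KO overlapped neither group, while the Het and WT ranges overlapped. The log2 fold change was 0.81 (adjusted p = 2.1e-06, SE 0.10) for KO versus WT and 0.58 (adjusted p = 0.000363, SE 0.09) for KO versus Het. For Het versus WT it was 0.23 (adjusted p = 0.0591, SE 0.10), a value that passed the threshold when Het replicate 3 (0.31, adjusted p = 0.02) or WT replicate 3 (0.32, adjusted p = 0.0222) was left out.

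Abca8a had the largest rise of the members in KO relative to WT, 3.15-fold. It encodes a transporter of subfamily A of the ATP-binding cassette proteins and lies on chromosome 11 (110025634 to 110095978, minus strand). Abca8a had 27.4, 28.0 and 26.5 CPM in KO, 11.1, 11.7 and 10.7 CPM in Het, and 8.94, 9.31 and 7.70 CPM in WT. The 3 genotypes did not overlap, and the step between KO and Het was the wide one. The log2 fold change was 1.66 (adjusted p = 3.1e-10, SE 0.09) for KO versus WT, 0.37 (adjusted p = 0.00456, SE 0.10) for Het versus WT and 1.29 (adjusted p = 4.56e-08, SE 0.09) for KO versus Het. Of its 31-base words 3.11% also occur in other genes, most often in Abca8b.

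Lpar1 was higher in both mutant genotypes than in WT. It encodes a G protein-coupled receptor for lysophosphatidic acid and lies on chromosome 4 (58435255 to 58553898, minus strand). Lpar1 had 9.62, 7.20 and 8.50 CPM in KO, 8.24, 8.12 and 7.82 CPM in Het, and 6.05, 5.08 and 4.82 CPM in WT. KO and Het overlapped, and both lay above WT. Lpar1 had a log2 fold change of 0.67 (adjusted p = 0.000633, SE 0.14) for KO versus WT and 0.60 (adjusted p = 0.00205, SE 0.14) for Het versus WT. KO versus Het differed by 0.07 (adjusted p = 0.789, SE 0.13), which does not show that the genotypes are alike.

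Nr4a2 was the member with the highest count and fell in both mutant genotypes. It encodes Nurr1, an orphan nuclear receptor expressed in subplate neurons, the claustrum and midbrain dopamine neurons, and lies on chromosome 2 (57106830 to 57124003, minus strand). Nr4a2 had 39.7, 38.9 and 50.5 CPM in KO, 79.0, 67.0 and 74.6 CPM in Het, and 90.2, 92.7 and 88.8 CPM in WT. The 3 genotypes did not overlap and were ordered KO, Het, WT with rising level. Nr4a2 had a log2 fold change of -1.07 (adjusted p = 3e-07, SE 0.09) for KO versus WT, -0.30 (adjusted p = 0.0132, SE 0.09) for Het versus WT and -0.77 (adjusted p = 5.2e-05, SE 0.09) for KO versus Het. Without Het replicate 2 the Het versus WT value was -0.22 (adjusted p = 0.0739).

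Because Nr4a2 is also induced by neuronal activity, the early-response genes were set beside it. The summed level of 10 immediate early genes was 73.7 to 88.3 CPM in KO, 53.3 to 67.2 CPM in Het and 90.0 to 560 CPM in WT, the top of the last range being WT replicate 2. Nr4a2 itself was at 92.7 CPM in that library, close to the other WT libraries. Of these 10 genes 6 were lower in KO than in WT and 4 were lower in Het (counts of lower genes that ranged from 2 to 7 and from 2 to 8 with each library left out). Fosb, a Fos family gene, had 0.418, 0.343 and 0.232 CPM in KO against 0.948, 28.5 and 1.21 CPM in WT, so 1 library carried most of its log2 fold change of -4.93 (adjusted p = 0.0483, SE 1.68). Without WT replicate 2 it was -1.70 (adjusted p = 0.00233, SE 0.41), and leaving out any KO or Het library raised the adjusted p to between 0.0732 and 0.13. Over the list, leaving out WT replicate 2 gave 7 lower and 2 higher genes in KO and 8 lower and 0 higher in Het. Egr1, another early-response gene, was then at -2.25 (adjusted p = 9.64e-05, SE 0.24) in KO and -1.805 (adjusted p = 0.000457, SE 0.23) in Het relative to WT. The summed level of 4 measured claustrum genes was 1312 to 1336 CPM in KO, 1283 to 1386 CPM in Het and 1329 to 1372 CPM in WT, of which Gng2, a G protein gamma subunit gene with wide expression, made up most. Of the 4, 1 was higher and 2 were lower than in WT in both KO and Het, and these counts were the same with each library left out. Synpr, a synaptic vesicle protein gene of claustrum and other neurons, fell in KO (log2 fold change -2.22, adjusted p = 1.18e-11, SE 0.10), as did Gnb4, a G protein beta subunit gene (-0.37, adjusted p = 7.69e-05, SE 0.06), and Ntng2, a netrin-related adhesion gene, rose (0.51, adjusted p = 1.77e-05, SE 0.07). In Het, Gnb4 was at -0.56 (adjusted p = 1.84e-06, SE 0.06) and Synpr at -1.74 (adjusted p = 3.65e-10, SE 0.09) relative to WT. The part of claustrum cells and of activity in the Nr4a2 difference was not tested.

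Ctgf was lower in Het than in WT and did not pass the test elsewhere. It encodes a secreted matrix-associated protein of the CCN family and lies on chromosome 10 (24595442 to 24598683, plus strand). Ctgf had 6.28, 6.06 and 7.74 CPM in KO, 5.08, 5.58 and 4.01 CPM in Het, and 6.73, 9.27 and 7.70 CPM in WT. KO overlapped WT, and Het lay below both. Ctgf had a log2 fold change of -0.69 (adjusted p = 0.00214, SE 0.16) for Het versus WT, -0.24 (adjusted p = 0.215, SE 0.16) for KO versus WT and 0.45 (adjusted p = 0.0629, SE 0.16) for KO versus Het. An antisense gene, Gm15270, overlaps 665 bases of its exons and was itself counted at no more than 5 reads per library.

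Moxd1 was lowest in Het and highest in KO. It encodes a relative of the copper enzyme dopamine beta-hydroxylase and lies on chromosome 10 (24223517 to 24302790, plus strand), 292651 bases from Ctgf, with 3 annotated genes between them that had 0 counts in all libraries. Moxd1 had 4.04, 4.27 and 3.19 CPM in KO, 2.46, 2.50 and 1.73 CPM in Het, and 2.94, 2.85 and 2.67 CPM in WT. The 3 genotypes did not overlap. The log2 fold change was 0.78 (adjusted p = 0.00796, SE 0.19) for KO versus Het, 0.44 (adjusted p = 0.0536, SE 0.18) for KO versus WT and -0.34 (adjusted p = 0.164, SE 0.19) for Het versus WT. The KO versus WT value lay at the threshold and crossed it under 7 of 18 alternative settings, among them the fit that left out KO replicate 3 (0.56, adjusted p = 0.0261). KO replicate 3 is the female library by Xist and Ddx3y.

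**Figure D2:**
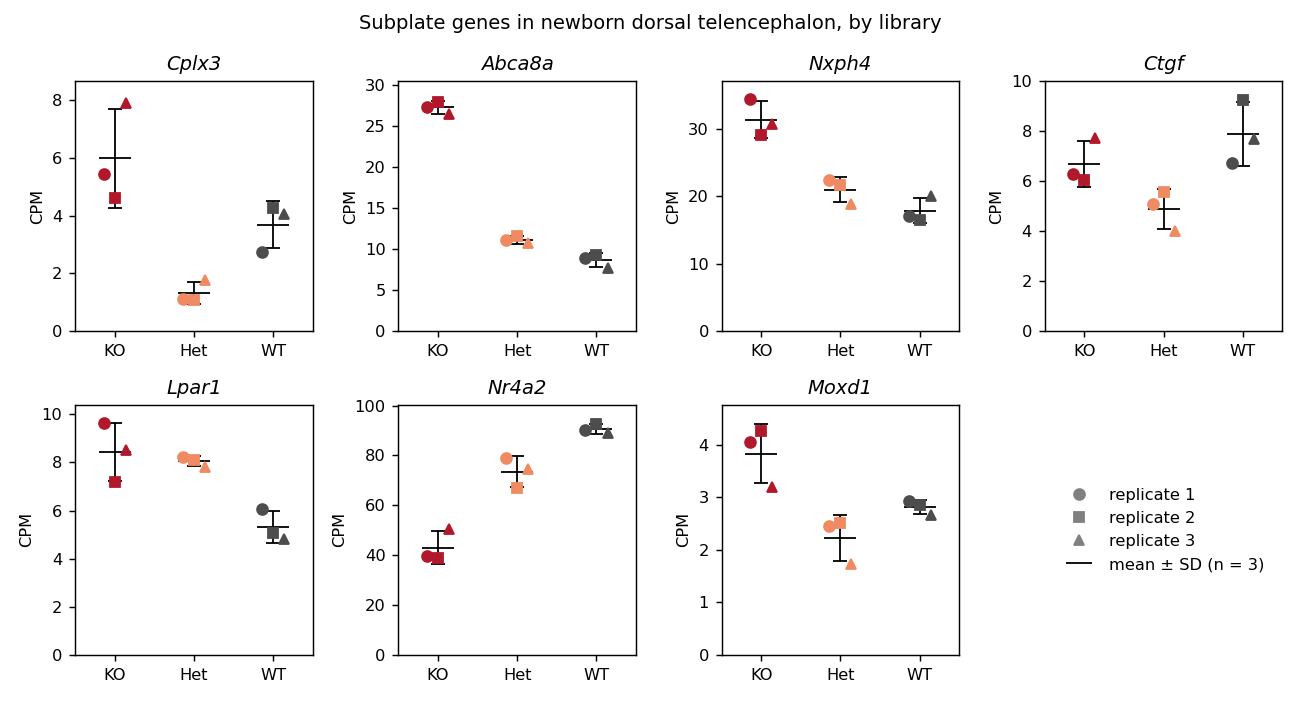
Level in CPM (y axis, from 0, with its own range in each panel) of each subplate gene in the KO, Het and WT libraries (x axis), where each point is 1 library, the shape gives the replicate number and the bars give the mean ± SD (n = 3). Abca8a stands at 26.5 CPM or more in KO against at most 11.7 CPM in Het and 9.31 CPM in WT, and Nr4a2 at no more than 50.5 CPM in KO against 88.8 CPM or more in WT.

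The balance between members changed more than their sum. Their summed level was 118 to 135 CPM in KO, 118 to 129 CPM in Het and 135 to 140 CPM in WT. Nr4a2 made up 31.3% to 37.4% of that sum in KO, 57% to 62.4% in Het and 65.4% to 67% in WT. Without Nr4a2 the sum of the other 6 was 79.1 to 87.1 CPM in KO, 44.9 to 50.6 CPM in Het and 44.5 to 47.2 CPM in WT. KO thus stood apart and Het overlapped WT. Abca8a (mean 27.3 CPM in KO, 8.65 in WT) and Nxph4 (31.4 and 17.8) had the widest gaps of the 6, and Ctgf was lower in KO (6.69 and 7.90). The Het sum hides moves in both directions, with Abca8a and Lpar1 higher and Cplx3 and Ctgf lower than in WT.

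Levels between genes were compared per length, with the deposited FPKM (fragments per kilobase of gene, scaled to library size). Nr4a2 led in WT (38.6 ± 0.78 FPKM), followed by Nxph4 (10.4 ± 1.1), Ctgf (4.43 ± 0.67), Abca8a (3.48 ± 0.34), Lpar1 (2.26 ± 0.30), Moxd1 (1.57 ± 0.09) and Cplx3 (1.28 ± 0.27) (SD, n = 3). No neighbours in that order overlapped in WT. In KO, Nr4a2 (18.8 ± 3.2 FPKM) and Nxph4 (18.8 ± 1.6) overlapped, and Abca8a took the third place at 11.2 ± 0.17 FPKM. Ctgf (3.86 ± 0.59 FPKM) overlapped Lpar1 (3.67 ± 0.53) in KO, as Moxd1 (2.18 ± 0.29) did Cplx3 (2.13 ± 0.64). In Het the order was Nr4a2 (32.5 ± 2.9 FPKM), Nxph4 (12.7 ± 1.1), Abca8a (4.64 ± 0.16), Lpar1 (3.54 ± 0.08), Ctgf (2.84 ± 0.44), Moxd1 (1.28 ± 0.24) and Cplx3 (0.473 ± 0.14), with no overlap between neighbours (SD, n = 3). The order rests on the authors' gene lengths. Abca8a was scaled to 2437 bases, against 6272 bases in the union of its GENCODE M21 exons, and Nr4a2 to 2299 against 4059. With the exon unions, a choice added after the data were seen, Nxph4 led in KO at 18.7 CPM per kilobase, Nr4a2 followed at 10.6 and Abca8a stood at 4.35.

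**Figure D3:**
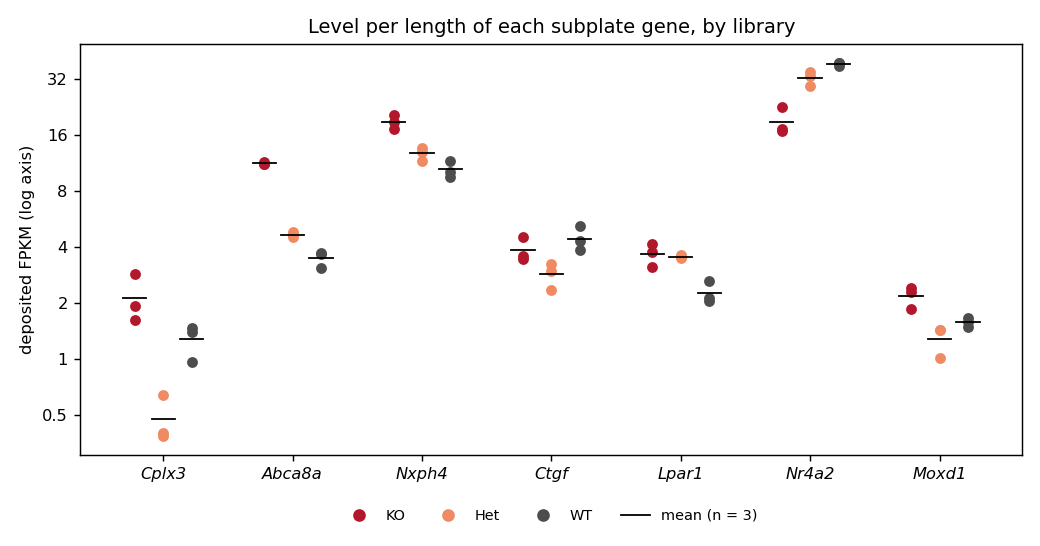
Deposited FPKM (y axis, log scale) of the 7 subplate genes (x axis) in the KO (red), Het (orange) and WT (grey) libraries, 1 point per library, with a line at the mean of 3. Nr4a2 and Nxph4 are well apart in WT at 38.6 and 10.4 FPKM and overlap in KO.

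Across the 9 libraries the members did not all run together, despite their shared use as markers. Abca8a and Nxph4 had a Pearson correlation of 0.93 in log2 CPM, and each ran against Nr4a2 (-0.97 and -0.93). Cplx3 correlated with Ctgf at 0.67 and with Moxd1 at 0.66. Moxd1 also correlated with Abca8a at 0.705, with Nxph4 at 0.659 and with Nr4a2 at -0.695. Lpar1 correlated with Nxph4 at 0.709, with Abca8a at 0.674 and with Nr4a2 at -0.674, so these pairs do not mark separate groups. Ctgf and Lpar1 gave -0.57, and Abca8a with Ctgf -0.01. These values are descriptions over 9 libraries that share 3 genotypes.

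Other genes described in the subplate or layer 6b moved in both directions too. Of 12 listed, all of which were tested, 5 were higher and 3 lower in KO than in WT (median log2 fold change -0.01). In Het 2 were higher and 4 lower than in WT (median -0.16), and 4 were higher and 1 lower in KO than in Het (median 0.20). Over all tested genes 26.5% were higher and 26.3% lower for KO versus WT. The shares were 22.5% and 23.4% for Het versus WT and 8.30% and 8.44% for KO versus Het. Pls3, which encodes the actin-bundling protein plastin 3, had the largest rise in KO relative to WT, at 102, 103 and 112 CPM in KO, 66.0, 67.5 and 62.9 CPM in Het, and 49.8, 44.8 and 41.5 CPM in WT. Its log2 fold change was 1.22 (adjusted p = 3.25e-10, SE 0.07) for KO versus WT and 0.53 (adjusted p = 9.44e-06, SE 0.07) for Het versus WT. Htr1d, a serotonin receptor gene, had the largest fall, with 0.941, 0.914 and 0.963 CPM in KO, 0.615, 0.880 and 0.484 CPM in Het, and 3.66, 2.81 and 3.23 CPM in WT. Its log2 fold change was -1.78 (adjusted p = 6.52e-06, SE 0.23) for KO versus WT and -2.28 (adjusted p = 1.28e-06, SE 0.24) for Het versus WT.

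Unc5c, Trh and Cdh18 had their highest mean level in KO and their lowest in Het, the order seen for Cplx3 and Moxd1. Unc5c, a netrin receptor gene, had 60.8, 63.2 and 57.9 CPM in KO, 34.8, 33.9 and 26.2 CPM in Het, and 36.9, 39.6 and 37.6 CPM in WT. KO lay above WT (0.67, adjusted p = 9.62e-06, SE 0.09) and Het below it (-0.27, adjusted p = 0.0247, SE 0.09). The Het value was -0.14 (adjusted p = 0.129) without Het replicate 3, and had adjusted p = 0.0758 without WT replicate 2 and 0.0524 without WT replicate 3. Trh, the precursor of thyrotropin-releasing hormone, and Cdh18, a type II cadherin gene, rose in KO relative to both other genotypes, with log2 fold changes of 1.42 (adjusted p = 0.000477, SE 0.24) and 0.94 (adjusted p = 6.12e-05, SE 0.13) for KO versus Het. Their Het versus WT values were -0.47 (adjusted p = 0.149, SE 0.26) and -0.15 (adjusted p = 0.36, SE 0.13).

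Gabra5, a GABA receptor subunit gene, fell in KO (-0.64, adjusted p = 5.85e-07, SE 0.07), as did Hs3st4, a heparan sulfate sulfotransferase gene (-0.21, adjusted p = 0.00369, SE 0.05). Cdh10, another type II cadherin gene, rose slightly in both mutant genotypes (0.27 each, adjusted p = 0.00728, SE 0.08 in KO and adjusted p = 0.0107 in Het). Tmem163 and Svil passed in no comparison, with log2 fold changes from -0.17 to 0.21. Drd1, a dopamine receptor gene, and Inpp4b, a lipid phosphatase gene, passed narrowly as lower in Het than in WT (-0.63, adjusted p = 0.0433, and -0.60, adjusted p = 0.0474), and each lost the call when any of several single libraries was left out, at adjusted p up to 0.13 for Drd1 and 0.195 for Inpp4b. Their KO versus Het values were 0.20 with adjusted p = 0.627 and 0.20 with adjusted p = 0.631. The Het versus WT count of 6 dropped to 3 without Het replicate 3 and without WT replicate 3.

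**Figure D4:**
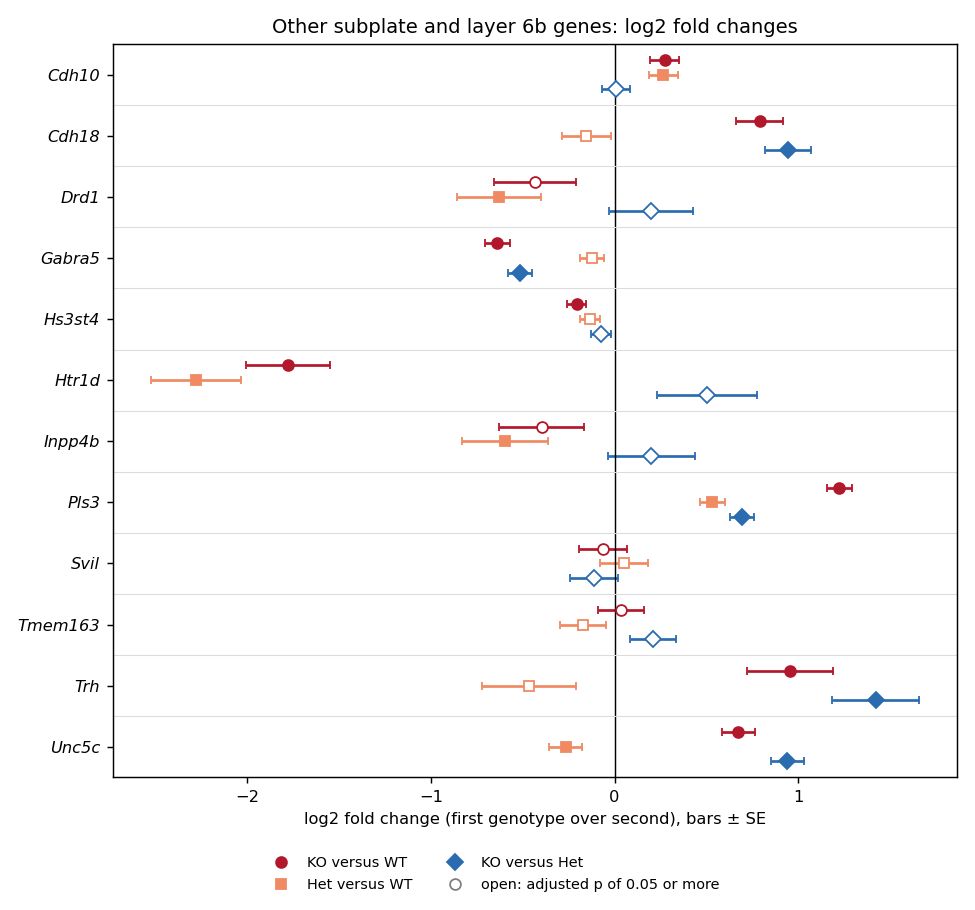
Log2 fold change (x axis, first genotype over second) of 12 other subplate and layer 6b genes (y axis), with colours, symbols, bars of ± SE and open symbols as for the 7 members. Trh, Unc5c and Cdh18 lie right of 0 for both comparisons of KO and left of 0 for Het versus WT, while Htr1d lies at -1.78 and -2.28 against WT.

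Drd1 is also a gene of striatal projection neurons, whose home, the striatum, is ventral to the cortex. All 7 listed striatal genes fell in both mutant genotypes (6 or 7 in Het with each library left out), with a summed level of 163 to 182 CPM in KO, 156 to 178 CPM in Het and 441 to 471 CPM in WT. The part of striatal tissue in the Drd1 difference, and in the other comparisons with WT, was not tested.

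Layer 6 corticothalamic neurons lie directly above the subplate, and their genes were used as the nearest class. Of 9 tested, 4 were higher and 3 lower in KO than in WT (median log2 fold change 0.28). In Het 5 were higher and 3 lower than in WT (median 0.34). Over all tested genes 26.5% were higher and 26.3% lower for KO versus WT, and 22.5% and 23.4% for Het versus WT. Fezf2, a transcription factor gene of subcortical projection neurons, rose in KO (0.98, adjusted p = 2.93e-07, SE 0.08), and Foxp2, a forkhead factor gene, had the largest fall (-2.12, adjusted p = 6.94e-07, SE 0.15). The part of striatal tissue in the Foxp2 fall and in the other values of this list was not tested. Tbr1, which is needed for layer 6 and subplate development, had a log2 fold change of 0.0057 for KO versus WT (adjusted p = 0.957, SE 0.08).

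Some members are also expressed outside neurons, so the marker lists of those cells were read beside them. Lpar1 and, to a lesser degree, Abca8a occur in the oligodendrocyte lineage. Of 12 genes of that lineage, 11 were lower and 1 higher in KO than in WT, and 10 were lower and 1 higher in Het (none higher without Het replicate 3 or WT replicate 3), with a summed level of 241 to 274 CPM in KO, 240 to 246 CPM in Het and 433 to 468 CPM in WT. Lpar1 and Abca8a were higher in KO than in WT, as was 1 of these 12 genes, the myelin gene Mog (0.92, adjusted p = 3.84e-05, SE 0.14). Enpp6, a marker of newly forming oligodendrocytes, had the largest fall, to 0.0359 ± 0.035 CPM in KO against 0.516 ± 0.056 CPM in WT (SD, n = 3, adjusted p = 0.000357 by edgeR). The part of oligodendrocyte-lineage cells in the Lpar1 and Abca8a differences was not tested.

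Ctgf is expressed in vascular and meningeal cells as well. Of 15 tested genes of those cells, 6 were higher and 2 lower in KO than in WT, and 9 were higher and 1 lower in Het, with a summed level of 306 to 325 CPM in KO, 297 to 330 CPM in Het and 221 to 235 CPM in WT. With each library left out, the counts of higher genes ranged from 5 to 7 in KO and from 6 to 9 in Het. Over all tested genes 26.5% were higher and 26.3% lower for KO versus WT, and 22.5% and 23.4% for Het versus WT. Aldh1a2, a meningeal marker, did not pass the filter. Dcn, a matrix proteoglycan gene of fibroblasts, rose in KO (1.69, adjusted p = 0.000734, SE 0.33), and by 2.46 (adjusted p = 2.2e-06, SE 0.25) without WT replicate 1, its highest WT library. Slc6a13, a transporter gene of meningeal fibroblasts, was counted at 2, 1 and 4 reads in KO against 26, 4 and 6 reads in WT. Its log2 fold change of -2.63 (adjusted p = 0.00787, SE 0.75) rested on WT replicate 1, without which it was -1.37 (adjusted p = 0.129, SE 0.72). WT replicate 1 was also the highest WT library for Aldh1a2, Col1a1 and Col1a2, further meningeal and fibroblast genes. Ctgf is also a target of the YAP and TEAD transcription pathway. Of 11 tested genes of that pathway, 7 were higher (6 to 8 with each library left out) and 1 lower in KO than in WT, led among those called by the transcription factor gene Tead2 (0.98, adjusted p = 1.15e-07, SE 0.09), and Axl, a receptor kinase gene, fell (-0.50, adjusted p = 4.33e-05, SE 0.08). In Het 5 were higher and 1 lower, with 3 higher when WT replicate 3 was left out. The part of these cells and of this pathway in the Ctgf values was not tested.

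**Figure D5:**
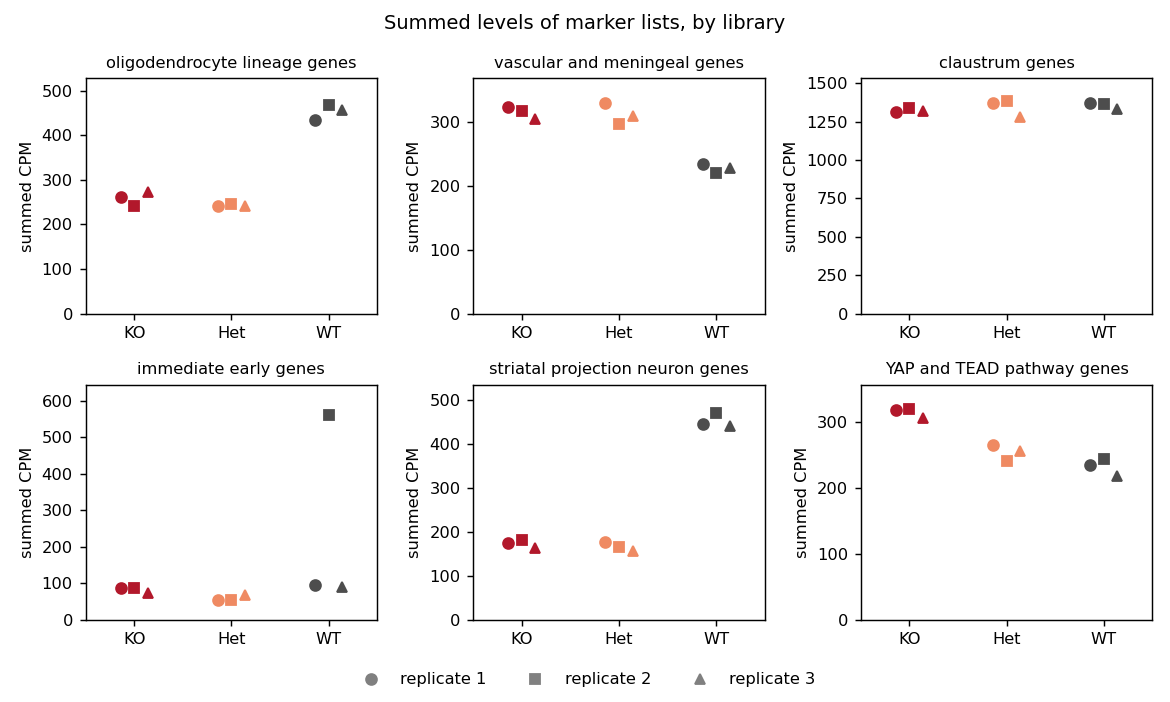
Summed CPM (y axis, from 0) of the genes in 6 marker lists in the KO, Het and WT libraries (x axis), 1 point per library, with the shape giving the replicate number. Oligodendrocyte and striatal sums are lower in KO and Het than in WT, vascular and meningeal sums are higher, claustrum sums overlap, and WT replicate 2 stands apart at 560 CPM for immediate early genes.

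Close relatives of the members often differed from them. Cplx1 and Cplx2, the main neuronal complexin genes, fell in KO (-0.84, adjusted p = 4.17e-10, SE 0.05, and -0.78, adjusted p = 1.56e-09, SE 0.05) and in Het, while Cplx3 was higher in KO and lower in Het. Cplx4 did not pass the filter. All 7 tested complexin and SNARE genes were lower than in WT in both mutant genotypes, and Stx1a, a syntaxin gene of the presynaptic membrane, reached -0.94 (adjusted p = 4.98e-10, SE 0.05) for KO versus WT.

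Among neurexophilins, Nxph1 fell in KO (-1.84, adjusted p = 1.09e-07, SE 0.13), Nxph3 rose (0.41, adjusted p = 3.6e-05, SE 0.06) and Nxph2 did not pass (-0.21, adjusted p = 0.286, SE 0.16). Relative to Het, all of Nxph1, Nxph2 and Nxph3 were lower in KO, whereas Nxph4 was higher. The Nxph2 value had adjusted p = 0.0552 without KO replicate 1. Nrxn2 and Nrxn3, which encode neurexins, the protein family that neurexophilins bind, were lower in KO than in WT, with log2 fold changes of -0.55 (adjusted p = 1.76e-07, SE 0.05) and -1.28 (adjusted p = 6.15e-11, SE 0.06). Both overlap genes on the opposite strand.

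Lpar2 rose with Lpar1, at 1.17 (adjusted p = 1.35e-06, SE 0.13) for KO versus WT and 0.71 (adjusted p = 0.00034, SE 0.13) for Het versus WT. Lpar3 fell in KO (-0.96, adjusted p = 0.0434, SE 0.38), having averaged 0.720 ± 0.37 CPM in KO libraries against 1.41 ± 0.24 CPM in WT libraries (SD, n = 3), and lost the call without KO replicate 2 or 3 or WT replicate 2 or 3 (adjusted p from 0.0925 to 0.164). Lpar4, Lpar5 and Lpar6 passed in no comparison over all libraries. Enpp2, which encodes autotaxin, the enzyme that makes lysophosphatidic acid, was lower in Het than in WT (-0.28, adjusted p = 0.0181, SE 0.09) and higher in KO than in Het (0.33, adjusted p = 0.0193, SE 0.09). Both calls were lost without Het replicate 1 or 3, the Het versus WT call also without WT replicate 2 or 3, and the KO versus Het call also without KO replicate 2 (adjusted p from 0.0536 to 0.109). Plpp1 and Plpp3, phosphatases that break the lipid down, fell in KO (-0.32, adjusted p = 0.00446, and -0.36, adjusted p = 0.000102). The gene Mtrex, on the opposite strand, overlaps 452 of the 1750 exon bases of Plpp1, and its part in the Plpp1 counts was not tested.

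Of the other NR4A receptors, Nr4a3 had 72.1 ± 5.3 CPM in KO, 126 ± 14 CPM in Het and 80.4 ± 19 CPM in WT (SD, n = 3), and was lower in KO than in Het (-0.81, adjusted p = 0.0297, SE 0.19) and higher in Het than in WT (0.65, adjusted p = 0.0274, SE 0.19). Both Nr4a3 calls were lost when single KO, Het or WT libraries were left out, at adjusted p from 0.0565 to 0.11. Nr4a1 passed in no comparison over all libraries and was at 33.7 CPM in WT replicate 2 against 11.5 and 11.8 CPM in the other WT libraries. Without that library Nr4a1 was lower in Het than in WT (-0.64, adjusted p = 0.00256, SE 0.15) and higher in KO than in Het (0.51, adjusted p = 0.0141, SE 0.13). Among retinoid X receptors, which pair with Nr4a2 protein, Rxrg fell in KO (-4.35, adjusted p = 4.77e-14, SE 0.12) and is in the striatal list too, while Rxra and Rxrb gave 0.20 (adjusted p = 0.0714) and 0.10 (adjusted p = 0.158).

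In the CCN family, Nov fell in KO (-2.15, adjusted p = 8.44e-12, SE 0.09) and Wisp1 rose, at a low level (1.87, adjusted p = 0.00031, SE 0.36), with 0.929 ± 0.042 CPM in the KO libraries against 0.250 ± 0.044 CPM in the WT libraries (SD, n = 3). Cyr61 had 4.74 and 4.86 CPM in WT replicates 1 and 3 and a higher value in WT replicate 2, and passed in no comparison over all libraries. Without WT replicate 2 its KO versus WT value was 0.49 (adjusted p = 0.0434), against -0.64 (adjusted p = 0.445) over all libraries. Of 8 tested genes of the ABCA subfamily, 2 were higher (1 without KO replicate 2 or 3 or WT replicate 1 or 2) and 2 lower in KO than in WT, with Abca6 at 1.43 (adjusted p = 0.000203, SE 0.26) and Abca3 at -0.54 (adjusted p = 6.53e-07, SE 0.06). Abca8b, Abca9 and Abca5, which with Abca6 belong to the gene cluster of Abca8a, did not pass in any comparison over all libraries. Of the copper monooxygenases, Dbh and Moxd2 did not pass the filter, and Pam, which amidates neuropeptides, rose in KO (0.99, adjusted p = 9.14e-10, SE 0.06) and in Het (0.60, adjusted p = 6.44e-07, SE 0.06).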

How the data were processed

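RNA of dissected dorsal telencephalon was sequenced in 9 libraries, 3 per genotype. Raw read counts and FPKM values were deposited as 2 tables by the authors, and the FPKM equal the counts divided by 1 length per gene and the library total. The submitters' processing notes list the build mm10 and, with no roles, DESeq 1.10.1, HTSeq 0.6.1, TopHat2 2.0.9 and Bowtie2 2.0.6. No source used here states whether counting used strand. Of 41128 genes, 40254 were paired with a symbol in GENCODE M21.

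Counts were analysed with edgeR 4.0.16 (R 4.3.3): filterByExpr (minimum count 10, minimum total 15), scaling by TMM, and the robust quasi-likelihood test over the 9 libraries (6 residual degrees of freedom), with calls at a Benjamini-Hochberg adjusted p under 0.05. CPM use TMM-scaled library sizes. SE is the log2 fold change divided by the square root of F. The procedure was tested on simulated counts. Alternatives used RLE and upper-quartile factors, other filters, DESeq2 1.42.0, fits of only the genotypes compared, limma 3.58.1 with a pseudocount of 1 or 0.1 on log2 FPKM, a block for replicate number, and each library left out, which was added for the other listed genes after the data were seen.

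The members and lists were chosen with earlier results of these data known. The rule for named genes took all members, Tcf4, relatives of members, the called gene with the largest change in each direction of each list in KO versus WT, and the closest patterns. Other genes named were chosen after their values were seen. Smim32 had no row by symbol and was not analysed here. Figures were drawn with matplotlib 3.10.9.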

Additional observations from a re-analysis of the deposited data

Results flagged for a closer look

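Cplx3, Moxd1 and Unc5c are listed because every KO library lay above every WT library and every Het library lay below every WT library. Only the 7 members and the 12 other subplate and layer 6b genes were searched. The share of all tested genes with such an order was not counted, so the listing does not set these genes apart. The difference between the mutant genotypes, KO versus Het, was 2.18 on the log2 scale for Cplx3 (adjusted p = 3.08e-05), 0.78 for Moxd1 (adjusted p = 0.00796) and 0.94 for Unc5c (adjusted p = 1.81e-06), by edgeR's quasi-likelihood test. For Moxd1 neither mutant genotype passed the threshold against WT, and for Unc5c the Het versus WT call was lost without Het replicate 3, WT replicate 2 or WT replicate 3.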

How the results depend on the processing

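Of 378 recomputed log2 fold changes of members, 357 kept their direction and side of the threshold, 5 lost the call, 15 gained it and 1 changed sign. That one was Lpar1 for KO versus Het, which ranged from -0.0364 (without KO replicate 1) to 0.17 with each library left out and was not called in any of these fits. Members called ranged from 4 to 6 for KO versus WT and Het versus WT and from 5 to 6 for KO versus Het when each library was left out. Genes called ranged from 7050 to 8365, from 5806 to 7068 and from 1432 to 2561, and the last dropped to 1467 without KO replicate 1 and 1432 without KO replicate 2. Other subplate and layer 6b genes called ranged from 8 to 9, from 3 to 6 and stayed at 5. With limma on log2(FPKM + 1) and log2(FPKM + 0.1), Nr4a2 for Het versus WT had adjusted p = 0.0523 and 0.0545. Nxph4 for Het versus WT gained a call with upper-quartile factors (adjusted p = 0.0314), and Ctgf for KO versus Het without a filter on low counts (adjusted p = 0.0285) and without WT replicate 2 (adjusted p = 0.05). The cause was not tested.

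Replicate numbers did not pair the libraries: same-numbered libraries had correlations of deviations from their group means between -0.106 and 0.0844, and 1 of 9 libraries correlated best with its own number in both other groups. With the replicate block 7775, 6641 and 2166 genes were called, against 8061, 7011 and 2556, and Moxd1 for KO versus WT had 0.43 with adjusted p = 0.0476. Cplx3 and Moxd1, at 27 to 238 and 50 to 116 reads per library, are the members on which depth weighs most.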

Other observations

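The genes whose log2 CPM ran most closely with each member over the 9 libraries, among 12504 searched with a mean log2 CPM of at least 1, were Mettl26 and Unkl for Cplx3 (Pearson r = 0.97 and 0.96), Plch1 and Kcnq5 for Abca8a (0.99 each), Lysmd1 and Hnrnpf for Nxph4 (0.98 and 0.97), Sstr1 and Cryz for Ctgf (0.96 each), Ccnk and Calu for Lpar1 (0.97 each), Nectin3 and Arntl for Nr4a2 (0.99 each), and Gpr137c and Myadm for Moxd1 (0.98 and 0.97). These are descriptions over libraries that share 3 genotypes.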
